A study of Mus musculus with 44 samples.

Results

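Cytochrome P450 enzymes of families 1 to 4 were described in the liver and skeletal muscle of mice lacking the lactate transporter gene Slc16a13 and of their wild-type littermates. A gene was included when its symbol consisted of Cyp, a family number from 1 to 4, a subfamily letter and a final number, and when at least 10 reads were counted on it in at least 5 of the 44 libraries. Of 38202 genes in the table, 75 had such a symbol and 55 of them met the count limit. The genes were thus chosen by their read counts in these same libraries, and the fact that they are expressed is not a finding. The members just inside the limit were Cyp2d11 with 6 libraries of at least 10 reads, Cyp2g1 with 9 and Cyp2d12 with 10. Just outside were Cyp2c69 with 4 libraries and Cyp2t4 and Cyp3a57 with 1 each. Of the 20 genes left out, 4 had no read in any library. The 55 genes comprised 2 of subfamily Cyp1a and 1 of Cyp1b, 4 of Cyp2a, 3 of Cyp2b, 12 of Cyp2c, 7 of Cyp2d, 3 of Cyp2j, 4 of Cyp3a, 4 of Cyp4a and 7 of Cyp4f. Subfamilies Cyp2e, Cyp2f, Cyp2g, Cyp2r, Cyp2s, Cyp2u, Cyp4b and Cyp4v contributed 1 gene each.

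The mice were males on a C57BL/6N background. All of them, knockouts and controls alike, had eaten high-fat diet (HFD) for 15 weeks when they were killed at 20 weeks of age, by default after fasting overnight. The 4 groups were livers and muscles of wild-type (WT) mice and of Slc16a13 knockout (KO) mice, with 11 mice in each genotype and both tissues taken from each mouse. The KO allele is a germline CRISPR/Cas9 deletion of the promoter and first exons of Slc16a13, so the gene is lost in the whole body and not in hepatocytes alone. In bulk tissue, fewer cells of a type and less RNA per cell cannot be told apart.

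P450 enzymes are haem proteins, mostly of the endoplasmic reticulum, that insert an oxygen atom into their substrate with electrons passed on by the reductase Por and by cytochrome b5. Families 1 to 3 oxidise drugs and other foreign compounds together with steroids, bile acids and fatty acids, and family 4 hydroxylates fatty acids and eicosanoids at or near the chain end. Hepatocytes are their main site, and much of their regulation is transcriptional, through the aryl hydrocarbon receptor Ahr for Cyp1a1, Cyp1a2 and Cyp1b1, through Nr1i3 (CAR) and Nr1i2 (PXR) for Cyp2b10 and Cyp3a11, and through Ppara for Cyp4a genes. Several family 2 genes are also known to differ between male and female mice under the control of growth hormone.

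Each library held between 20150712 and 35218243 counted reads. Reads on Slc16a13 numbered 99 to 302 in WT livers and 0 to 8 in KO livers, whereas 4 to 22 were counted in WT muscles and 11 to 40 in the muscles labelled KO (adjusted p = 0.49). Since muscle reads did not fall in the knockouts, the muscle libraries of that genotype are named here by their label, as muscles labelled KO. Reads on the undeleted part of the gene are included, and the muscle counts are few. The paper reports efficient deletion from mRNA levels in multiple tissues, measured by qRT-PCR with primers on deleted exons. Hepatocyte markers (10 genes) summed to 90437 CPM (counts scaled to library size) or more in every liver and to 11.9 CPM or less in every muscle. Markers of skeletal muscle fibres (8 genes) summed to 130244 CPM or more in every muscle. In 4 KO livers, of mice 532, 583, 602 and 611, levels fell with gene length relative to the mean of all 22 livers. The measure was the slope, on log2 length, of each gene's log2 CPM minus its mean over these livers. It lay between -0.53 and -0.08 in the 4 and above 0 in the other 18 livers. Because the mean includes the 4, the slopes are relative, and an absolute fall was not measured. A fall with gene length has this relative meaning below. Values without those 4 libraries are given beside most liver results that they moved. The libraries were sequenced in pools of 11, and which libraries shared a pool is not given in the sources used here, so that pool and genotype cannot be told apart.

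P450 genes took a far larger share of the reads in liver than in muscle. The 55 genes took 2.65%, 3.28% and 3.47% of all counted reads in the lowest, median and highest WT liver, and 2.60%, 3.36% and 3.86% in KO livers. In muscle they took 0.00403% to 0.00684% of the reads in WT mice and 0.00474% to 0.0137% in muscles labelled KO. Cyp2e1, which oxidises ethanol, acetone and other small molecules, alone accounted for a median of 39.6% of the P450 reads in WT livers (range 38% to 43%). The 4 Cyp4a genes, encoding fatty acid omega-hydroxylases, followed with 18.3%, then Cyp2c and Cyp2d genes with 11.2% each, Cyp3a with 5.47%, Cyp2a with 3.17% and Cyp2f2 with 3.10%.

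Levels of different genes were compared per length, as RPKM. In WT livers Cyp2e1 measured 6122, 6939 and 7720 RPKM in the lowest, median and highest mouse. The fatty acid hydroxylases Cyp4a14 and Cyp4a10 came next, with 855, 1408 and 1707 RPKM and with 876, 1151 and 1569 RPKM. Cyp2d9, a testosterone hydroxylase known to be higher in males, measured 807, 934 and 1096 RPKM. The ranges of these 3 genes overlapped, so that their order depends on the mouse, whereas the lowest Cyp2e1 value lay above every value of every other member. Cyp2c29 (390, 695 and 962 RPKM), Cyp2d26 (568, 646 and 708 RPKM) and Cyp2f2, which activates naphthalene (401, 522 and 639 RPKM), followed and overlapped one another. Cyp2c50 (290, 485 and 564 RPKM), Cyp2d10 (402, 451 and 488 RPKM) and Cyp3a11, a major drug-metabolising enzyme (258, 398 and 731 RPKM), completed the 10 highest, again with overlapping ranges. At the other end the medians were 0.156 RPKM for Cyp2d11, 0.170 RPKM for Cyp1b1 and 0.184 RPKM for Cyp2g1.

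**Figure D1:**
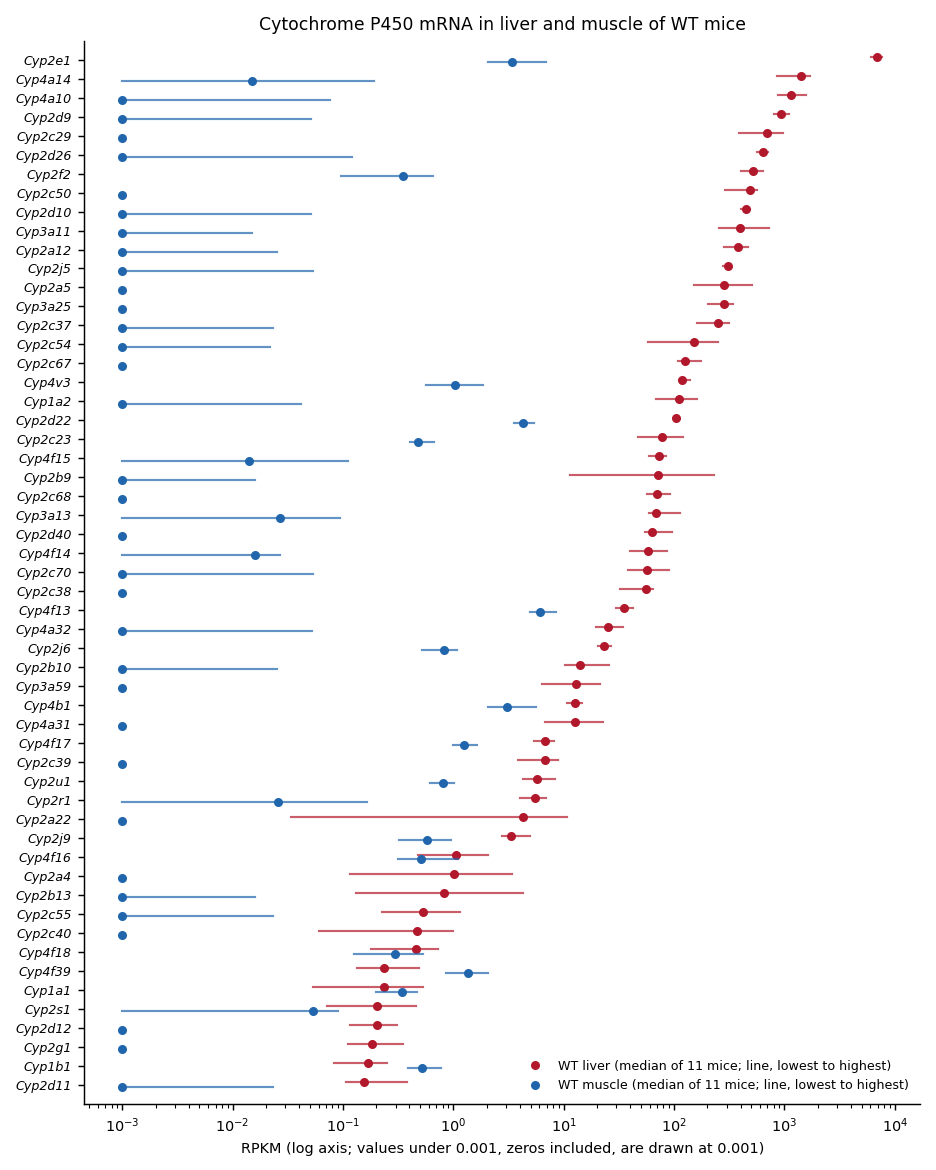
RPKM (log axis) of the 55 P450 genes in liver (red) and muscle (blue) of WT mice, ordered by liver level; points are medians of 11 mice, lines run from the lowest to the highest mouse, and values under 0.001 are drawn at 0.001. Liver medians run from 6939 RPKM for Cyp2e1 down to 0.156 for Cyp2d11, and in muscle Cyp4f13 is highest at 6.10.

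Some members are near-identical copies. The name of the deposited RPKM table marks its values as unique, that of the count table carries only the letter u, and how a read matching more than 1 gene was treated is not further stated in the sources used here. If such reads were left out, the levels of near-identical genes are lowered, so their values are uncertain. When the longest transcript of each gene was split into windows of the read length, 85 bases, 20 of the 55 genes shared no window with another gene. The largest shares were 51.7% for Cyp2c40, 30.7% for Cyp2c67, 25.7% for Cyp4a32, 24.2% for Cyp2c68, 21.2% for Cyp2d10 and 20.5% for Cyp2a5. Cyp4a10 shared 16.1% of its windows and Cyp2d9 shared 13.6%, whereas Cyp4a14, Cyp2c29, Cyp2f2 and Cyp3a11 shared none.

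Loss of Slc16a13 was compared first in liver. Of the 51 members with enough reads for the test, 0 passed an adjusted p of 0.05 in edgeR's quasi-likelihood test, in which 0.0231% of all 13005 genes passed (DESeq2 and limma-voom also called 0 members, with 9 and 4 at an unadjusted p under 0.05). At an unadjusted p under 0.05 there were 8 members, all higher in KO livers. Over all genes 12.9% passed that mark, 9.78% of all genes being higher and 3.1% lower, so the share of P450 genes is near the background. The fold change was positive for 38 members and negative for 13, with a median log2 fold change of 0.12 against -0.01 over all genes.

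These 8 members belonged to 5 subfamilies. Cyp1a1 and Cyp1a2, which oxidise polycyclic aromatic compounds and caffeine, had log2 fold changes of 4.42 (standard error 1.21, p = 0.0012) and 0.62 (standard error 0.26, p = 0.026). Cyp2c70, which makes the muricholic acids of rodent bile, measured 62.1, 88.5 and 140 CPM in WT livers and 88.1, 113 and 145 CPM in KO livers. Its log2 fold change was 0.37 (standard error 0.13, p = 0.011). Cyp2d10 measured 647, 754 and 805 CPM in WT livers and 566, 818 and 1353 CPM in KO livers, with 7 of 11 KO livers above the WT range (log2 fold change 0.25, standard error 0.10, p = 0.024). Cyp2d40 had a log2 fold change of 0.29 (standard error 0.13, p = 0.04) and Cyp4f15 one of 0.19 (standard error 0.08, p = 0.029). Cyp2d26 (0.17, p = 0.045) and Cyp2a12 (0.23, p = 0.045), a bile acid hydroxylase, were the other two. Every one of these had an adjusted p of 0.38, and the WT and KO ranges overlapped for all 8.

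The most abundant members did not pass, Cyp2d10 and Cyp2d26 at the unadjusted mark excepted. Cyp2e1 measured 10319, 12455 and 14039 CPM in WT livers and 10476, 13904 and 16663 CPM in KO livers (log2 fold change 0.14, standard error 0.08, adjusted p = 0.40). Cyp4a14 had a log2 fold change of 0.13 (standard error 0.15), Cyp4a10 one of 0.14 (standard error 0.15) and Cyp3a11 one of -0.03 (standard error 0.17). Cyp2d9 (0.23, standard error 0.11), Cyp2c29 (0.25, standard error 0.17), Cyp2c50 (0.08, standard error 0.12) and Cyp2f2 (0.11, standard error 0.10) did not pass either. Cyp2b10, the classical target of Nr1i3, had a log2 fold change of 0.33 (standard error 0.23), and Cyp2a5, the coumarin hydroxylase, one of 0.27 (standard error 0.22). Cyp2r1, a vitamin D hydroxylase, and Cyp2u1, a fatty acid hydroxylase, had values of -0.11 (standard error 0.09) and -0.12 (standard error 0.13).

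Several of these differences were smaller without the 4 livers in which levels fell with gene length. Without them 3 members had an unadjusted p under 0.05, namely Cyp1a1, Cyp1a2 and Cyp2b10 (log2 fold change 0.54, standard error 0.24), beside 2.96% of all genes. The log2 fold change of Cyp1a1 was then 5.06 (standard error 1.15) and that of Cyp1a2 0.78 (standard error 0.29). That of Cyp2d10 went from 0.25 to 0.05 (standard error 0.07), that of Cyp2d40 to 0.08 (standard error 0.12) and that of Cyp2c70 to 0.24 (standard error 0.15). Cyp2d26 went to 0.06 (standard error 0.06), Cyp2a12 to 0.10 (standard error 0.11) and Cyp4f15 to 0.16 (standard error 0.08). Of the abundant members, Cyp2d9 went from 0.23 to 0.07 (standard error 0.09), while Cyp2e1 was at 0.12 (standard error 0.08), Cyp4a14 at 0.21 (standard error 0.15), Cyp4a10 at 0.19 (standard error 0.15), Cyp2c29 at 0.24 (standard error 0.19) and Cyp3a11 at 0.05 (standard error 0.19). When counts were scaled by library size alone, 4 members had an unadjusted p under 0.05, while 10.8% of all genes did; their split turned from 1272 higher and 403 lower to 514 higher (3.95%) and 894 lower (6.87%). Of the hepatocyte markers, 4 of 10 were higher in KO livers at an unadjusted p under 0.05 and 0 passed the adjusted threshold, with a summed level of 90437 to 123003 CPM in WT livers and 100633 to 153282 CPM in KO livers. Macrophage markers, again over all 22 livers, were higher for 3 of 6 at the unadjusted mark. Their highest sums, 575 and 364 CPM, were in KO mice 532 and 611, both among the 4 livers, against 222 to 294 CPM in WT livers. Marker tests without the 4 livers are not given here. In the liver of mouse 532 Cyp4f18, known for hydroxylation of leukotriene B4 in leukocytes, measured 4.08 CPM against 0.98 CPM or less in all WT livers. The part of these markers in the P450 differences was not tested.

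**Figure D2:**
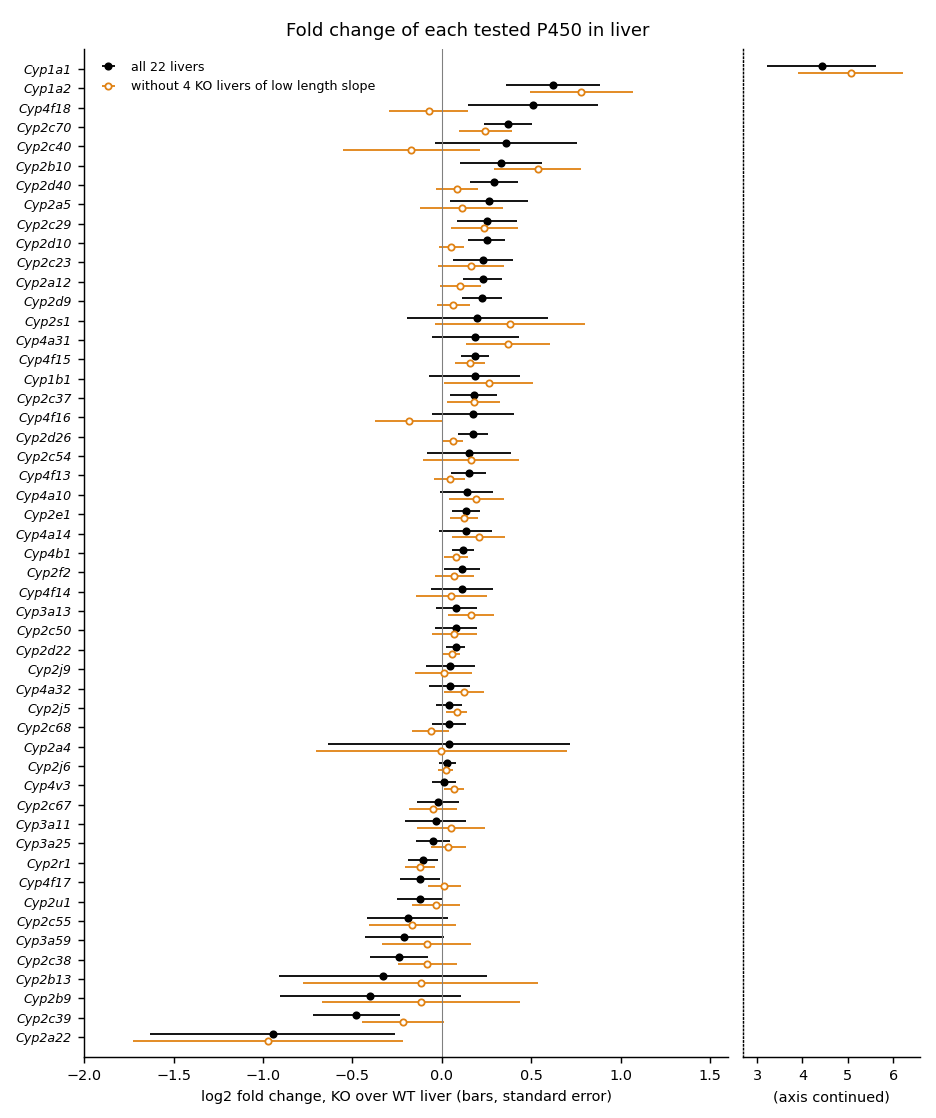
Log2 fold change of KO over WT liver for 51 P450 genes with standard errors, from all 22 livers (black) and without the 4 KO livers whose levels fell with gene length (orange); the axis is broken for Cyp1a1. Positive values are in the majority, and Cyp1a1 stands apart at 4.42.

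The Cyp1a1 value rested on a single animal. In the liver of KO mouse 597, 3950 reads or 172 CPM were counted on Cyp1a1, while the other 21 livers held 0.143 to 1.31 CPM, so that mouse 597 was 131 times above the next liver. Cyp1a1 measured 0.143, 0.570 and 1.31 CPM in the lowest, median and highest WT liver and 0.237, 0.602 and 172 CPM in KO livers, and the ranges overlapped except for this animal. Without mouse 597 the log2 fold change of Cyp1a1 was -0.41 (standard error 0.32, p = 0.22), and 11 members had an unadjusted p under 0.05 beside 19.5% of all genes. The count model of DESeq2, in which extreme counts are replaced, gave -0.39 from all livers.

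Cyp1a2, the constitutive hepatic relative of Cyp1a1, measured 119, 204 and 313 CPM in WT livers and 188, 289 and 1059 CPM in KO livers. The highest value was again in mouse 597, 2.7 times the next, which was mouse 602 with 393 CPM. Without mouse 597 its log2 fold change was 0.29 (standard error 0.18, p = 0.12). Cyp1b1, the extrahepatic member of the family, was at 1.61 CPM in the liver of mouse 597, second to mouse 532 with 1.63 CPM, and its log2 fold change was 0.18 (standard error 0.25).

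Other targets of Ahr were read in the same liver. Tiparp, a feedback inhibitor of the receptor, stood at 9.08 CPM in mouse 597 and at 3.12 to 8.67 CPM in the other 21 livers. Ahrr, the Ahr repressor, stood at 0.391 CPM from 9 reads, against 0.297 CPM or less elsewhere. Mouse 597 was thus highest of 22 for both, by a small margin, whereas Ahr itself (51.3 CPM) lay inside the range of the others. In muscle, too, mouse 597 had the highest Cyp1a1, 3.36 CPM from 77 reads against 0.262 to 1.46 CPM in the other 21 muscles. In muscle Tiparp ranked 16th of 22 in this mouse. The cage, handling and diet batch of single mice are not given in the sources used here.

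**Figure D3:**
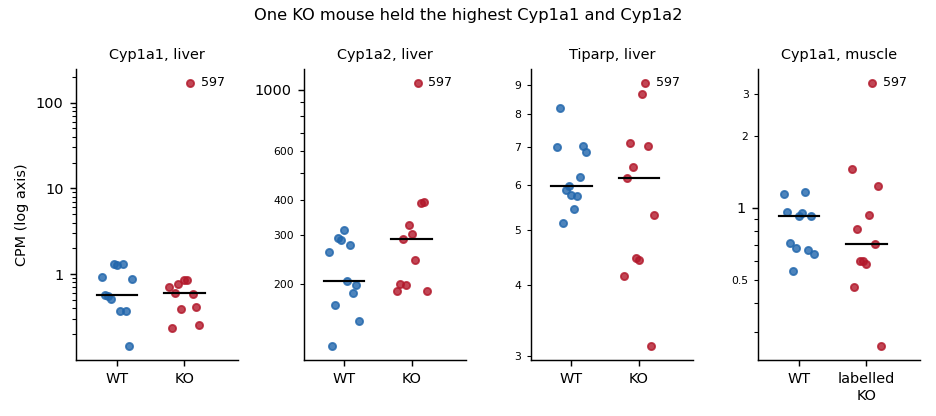
CPM (log axes) of Cyp1a1, Cyp1a2 and Tiparp in liver and of Cyp1a1 in muscle, 1 point per mouse and 11 mice per group, with the median as a bar. KO mouse 597 is highest in all 4 panels, at 172 CPM for Cyp1a1 in liver where the other livers stay at 1.31 or less.

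Cyp1a1 and Cyp1a2 lie head to head on chromosome 9, with 13958 bases between their start sites in the reference. The 250 bases before each start are shown because the pair was read together above and only the window of Cyp1a1 held the core of the Ahr binding motif. They were taken from RefSeq (GRCm38.p6), with chr9:57697363-57697612 on the plus strand for Cyp1a1 and chr9:57683656-57683905 on the minus strand for Cyp1a2. Capitals mark GCGTG and TATAAA.
Cyp1a1: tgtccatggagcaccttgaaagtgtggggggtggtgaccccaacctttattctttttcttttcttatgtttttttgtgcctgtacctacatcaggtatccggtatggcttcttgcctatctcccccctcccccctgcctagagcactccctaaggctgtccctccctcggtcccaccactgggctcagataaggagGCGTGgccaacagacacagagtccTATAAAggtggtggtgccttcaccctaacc
Cyp1a2: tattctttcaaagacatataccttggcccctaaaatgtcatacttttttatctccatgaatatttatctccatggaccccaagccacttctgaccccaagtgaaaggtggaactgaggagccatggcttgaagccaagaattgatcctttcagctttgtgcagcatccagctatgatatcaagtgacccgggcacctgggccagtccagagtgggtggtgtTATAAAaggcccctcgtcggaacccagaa

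GCGTG begins 54 bases before the start of Cyp1a1, and TATAAA begins 30 bases before the start of Cyp1a1 and 29 before that of Cyp1a2. No GCGTG was found in the Cyp1a2 window, which says only that these letters are not in these bases. RefSeq windows running from 250 bases before to 50 after the start were available for 45 of the 55 genes. On either strand, TATAAA occurred in 22 of 45 (48.9%) against 15.7% of 27025 genes, CCAAT in 24 (53.3% against 41.1%), AGGTCA, a nuclear receptor motif, in 13 (28.9% against 18.1%) and GTTAAT, a motif of HNF1, in 7 (15.6% against 8.24%). GCGTG occurred in 10 (22.2% against 35.2%) and TTGCGCAA, a motif of C/EBP, in 0 (0.207% of all genes). None of these motifs contains another on either strand, and a match describes the window and not a bound site.

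Variation between animals was large for many members. Among the 46 genes with a median of at least 1 CPM in WT livers, the ratio of the highest to the lowest mouse ranged from 1.19 to 302 with a median of 1.92. It was under 2 for 25 genes and over 5 for 4 genes. The dispersion of counts relative to the trend at the same abundance had a median of 1.52 for P450 genes against 0.51 for all 11783 genes in WT livers, and 39 of the 46 lay above the median of all genes. In KO livers the medians were 0.78 and 0.67, with 27 of 44 above. The steadiest members were Cyp2d22 (255 to 303 CPM) and Cyp2j6 (75.8 to 90.2 CPM), an arachidonic acid epoxygenase, with a ratio of 1.19 each.

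The most variable members were led by Cyp2a22, which ran from 0.0751 CPM in WT mouse 586 to 22.7 CPM in WT mouse 612, a ratio of 302 (median 9.65 CPM). Cyp2b13 followed with 0.246, 1.46 and 7.82 CPM in the lowest, median and highest WT liver, a ratio of 31.8. Cyp2a4, a steroid hydroxylase known to be higher in females, measured 0.207, 1.69 and 5.62 CPM, a ratio of 27.2. Cyp2b9, whose mRNA is likewise known as female-biased, measured 21.4, 132 and 420 CPM, a ratio of 19.6. Cyp2c54 (94.8, 261 and 460 CPM) and Cyp2c55 (0.465, 1.07 and 2.24 CPM) had ratios of 4.85 and 4.83. KO livers spread widely too, with 12.6, 84.4 and 314 CPM for Cyp2b9, 0.0401, 1.37 and 4.99 CPM for Cyp2b13 and 0.201, 0.513 and 7.77 CPM for Cyp2a4. With this spread, the log2 fold change between genotypes had a standard error of 0.51 for Cyp2b9 (value -0.40), 0.58 for Cyp2b13 (-0.33), 0.68 for Cyp2a4 (0.04) and 0.68 for Cyp2a22 (-0.95), and 0 of the 4 passed an unadjusted p of 0.05. The Cyp2b9 value lay between -0.70 (without KO mouse 597) and -0.10 (without WT mouse 516) with each mouse left out, and it was -0.12 without the 4 KO livers whose levels fell with gene length.

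Several members followed Cyp2b9 from mouse to mouse. WT mice 516, 586 and 531 were highest for Cyp2b9, at 420, 261 and 241 CPM, and WT mice 536, 623 and 537 were lowest, at 28.8, 24.3 and 21.4 CPM. Cyp2b13 was at 7.82, 3.94 and 2.01 CPM in the first 3 animals and at 0.310, 0.322 and 0.246 CPM in the last 3. Cyp2a4 was at 3.45, 1.77 and 5.62 CPM in the former and at 0.207, 0.251 and 0.246 CPM in the latter. Cyp4f14, which hydroxylates leukotriene B4, ran the other way, with 90.3, 112 and 107 CPM against 196, 142 and 185 CPM.

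Spearman's rho of log2 CPM with Cyp2b9 was computed over the 11 WT livers and again over the 11 KO livers. It was 0.92 and 0.93 for Cyp2b13 (Pearson's r 0.93 and 0.90), 0.90 and 0.70 for Cyp3a59 (r 0.90 and 0.72), 0.85 and 0.62 for Cyp2c39 (r 0.90 and 0.65) and 0.85 and 0.50 for Cyp2a4 (r 0.87 and 0.56). It was negative for Cyp4f13 at -0.82 and -0.71 (r -0.85 and -0.69), for Cyp4f14 at -0.76 and -0.80 (r -0.77 and -0.73) and for the male-biased Cyp2d9 at -0.67 and -0.77 (r -0.69 and -0.63). Of the other 45 genes with a median of at least 1 CPM, 21 had a rho of at least 0.5 in size in WT livers, 11 positive and 10 negative, and 20 of these 21 had the same sign in KO livers. Over the 7 KO livers left without the 4 whose levels fell with gene length, rho was 0.96 for Cyp2b13, 0.79 for Cyp3a59, 0.64 for Cyp2c39 and for Cyp2a4, -0.71 for Cyp4f13, -0.89 for Cyp4f14 and -0.64 for Cyp2d9. Because Cyp2b9 was set as the reference after its spread had been seen, these are descriptions and carry no p. All points of a genotype share library preparation and normalisation, and near-identical copies share sequence.

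**Figure D4:**
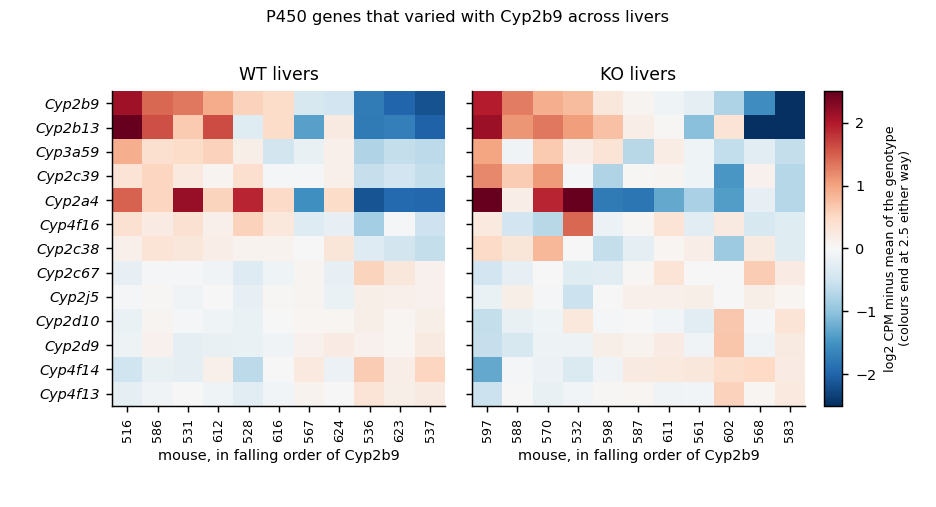
Log2 CPM minus the mean of the genotype for Cyp2b9 and 12 P450 genes, in 11 WT and 11 KO livers ordered by falling Cyp2b9 (colours end at 2.5). The 12 genes had the highest and lowest rho with Cyp2b9 in WT livers, where they were chosen. Cyp2b13 and Cyp2a4 are high at the left and low at the right in WT livers, where Cyp2b9 runs from 420 to 21.4 CPM, and Cyp4f13 and Cyp4f14 run the other way.

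The 250 bases before the start of Cyp2b9 and Cyp2b13, which varied together, are shown next, followed by those of Cyp2a4 and Cyp2a5, which did not have similar levels. All lie on the plus strand of chromosome 7 and are from RefSeq (GRCm38.p6). The windows are chr7:26173159-26173408 for Cyp2b9 and chr7:26061245-26061494 for Cyp2b13, and capitals mark the bases in which each differs from the other gene of its pair.
Cyp2b9: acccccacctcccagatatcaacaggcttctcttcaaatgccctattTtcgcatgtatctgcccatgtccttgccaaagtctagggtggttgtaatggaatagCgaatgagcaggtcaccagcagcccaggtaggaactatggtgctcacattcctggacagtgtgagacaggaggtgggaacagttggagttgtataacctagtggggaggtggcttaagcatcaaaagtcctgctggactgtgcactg
Cyp2b13: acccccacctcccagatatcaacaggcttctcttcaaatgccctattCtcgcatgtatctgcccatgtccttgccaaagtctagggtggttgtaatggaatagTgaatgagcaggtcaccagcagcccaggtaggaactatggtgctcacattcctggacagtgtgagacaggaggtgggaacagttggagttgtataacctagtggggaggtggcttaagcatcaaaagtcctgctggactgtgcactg
The windows are chr7:26306942-26307191 for Cyp2a4 and chr7:26835089-26835338 for Cyp2a5.
Cyp2a4: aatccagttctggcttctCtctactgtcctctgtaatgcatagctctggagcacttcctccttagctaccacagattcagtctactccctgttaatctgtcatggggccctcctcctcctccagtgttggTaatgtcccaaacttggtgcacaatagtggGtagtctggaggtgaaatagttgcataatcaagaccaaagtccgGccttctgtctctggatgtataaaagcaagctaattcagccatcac
Cyp2a5: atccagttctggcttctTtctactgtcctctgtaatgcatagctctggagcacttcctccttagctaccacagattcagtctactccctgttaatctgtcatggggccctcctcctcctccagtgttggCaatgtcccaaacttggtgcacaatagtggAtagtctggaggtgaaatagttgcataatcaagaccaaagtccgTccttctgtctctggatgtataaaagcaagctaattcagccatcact

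The Cyp2b9 and Cyp2b13 windows differed at 2 of 250 bases (99.2% identity), and those of Cyp2a4 and Cyp2a5 at 4 of 249 bases when shifted by 1 base (98.4%). Even so, Cyp2b9 had a median of 132 CPM in WT livers and Cyp2b13 one of 1.46 CPM. Cyp2a4 had a median of 1.69 CPM and Cyp2a5 one of 419 CPM (range 206 to 697). Of the read-length windows of the transcripts, Cyp2b9 shared 3.52% with Cyp2b13, Cyp2a4 shared 16.6% with Cyp2a5 and Cyp2a5 shared 14.2% with Cyp2a4. Cyp2b13 shared 12.6% with any gene, and 10.1% with the gene model Gm45225.

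Selected pairs of members were compared across livers with permutation tests of 100000 resamples, adjusted over all 16 relations computed. Cyp4a10 and Cyp4a14 rose and fell together, with r = 0.96 and rho = 0.99 in WT livers and r = 0.98 and rho = 0.94 in KO livers (adjusted p = 8e-05 for both r, from the smallest p the resamples can give, and 0.00016 and 0.00136 for the rho). Without the 2 livers farthest from the median of Cyp4a10, r was 0.96 and 0.94, and over the 7 KO livers without falling length slope it was 0.97. The log2 fold change of Cyp4a14 between genotypes lay between 0.05 (without KO mouse 598) and 0.22 (without KO mouse 532) with each mouse left out. Cyp4a14 ranged from 2014 to 4424 CPM in WT livers and from 1827 to 5600 CPM in KO livers. The lowest KO value of both genes was in mouse 532, in which Ppara, their known regulator, was also lowest at 17.1 CPM against a median of 178 CPM in KO livers. Ppara lay below the WT range in 4 KO livers, whereas Cyp4a14 and Cyp4a10 did so in 1 each. The log2 fold change of Ppara went from -0.35 to 0.07 (standard error 0.07) without the 4 livers whose levels fell with gene length. The liver of mouse 532 is the library with the steepest fall of level with gene length, and the part of the length dependence in these values was not tested.

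The other pairs did not pass the adjusted threshold in either genotype. For Cyp2b10, Cyp2b9 gave r = 0.27 (rho = 0.20) in WT livers and 0.14 (rho = 0.26) in KO livers, and Cyp2c29 gave -0.21 (rho = -0.16) and 0.54 (rho = 0.45). Cyp3a11 and Cyp2c29 gave r = -0.06 (rho = -0.15) and 0.03 (rho = 0.05). Cyp1a2 and Cyp2e1, both of the pericentral zone of the lobule, gave r = 0.59 (rho = 0.63, adjusted p = 0.16 for r and 0.14 for rho) and -0.11 (rho = 0.35). Without the 2 livers farthest from the median of Cyp1a2 these r were 0.21 and 0.74, so that neither value is stable, and over the 7 KO livers without falling length slope r was -0.66. Cyp2e1 and the periportal Cyp2f2 gave r = 0.30 (rho = 0.27) and 0.59 (rho = 0.60, adjusted p = 0.16 and 0.15). Without the 2 farthest livers, r of Cyp2e1 and Cyp2f2 was -0.19 in WT and 0.14 in KO livers. The adjusted p of these 10 relations lay between 0.14 and 0.98 over r and rho.

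P450 mRNA was compared next between liver and muscle of WT mice. Of the 47 members tested, 46 passed the adjusted threshold, 44 higher in liver and 2 higher in muscle, and 91.0% of all 13907 genes passed it, 45.5% in each direction. Because a gene could meet the count limit through liver alone, the number is a description of the members and not a result about them. The 2 higher in muscle were Cyp1b1, with 0.430, 0.863 and 1.21 CPM in liver and 2.09, 2.59 and 3.77 CPM in muscle (log2 fold change of liver over muscle -1.65, standard error 0.16, adjusted p = 4.8e-10), and Cyp4f39, an acylceramide-forming hydroxylase of skin. Cyp4f39 measured 0.208, 0.361 and 0.743 CPM in liver and 1.38, 2.27 and 3.42 CPM in muscle (log2 fold change -2.51, standard error 0.21, adjusted p = 3.1e-11). The groups did not overlap for either gene. Cyp1a1 was the member that did not pass, with 0.143 to 1.31 CPM in liver and 0.543 to 1.16 CPM in muscle (log2 fold change -0.11, standard error 0.26, adjusted p = 0.68).

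Muscle reads were set against liver reads of the same mice, beside hepatocyte markers as a measure of liver RNA in the muscle libraries. Summed over the WT mice and scaled to depth, the 10 hepatocyte markers in muscle reached 0.000645% to 0.00196% of their liver level. Of the 55 P450 genes, 25 lay at or below 0.00196%, and 16 of these had no read in any WT muscle. The other 30 lay above it, between 0.00234% and 595%, but 7 of them rested on 1 to 3 reads in all WT muscles together (Cyp1a2, Cyp2b9, Cyp2b10, Cyp2b13, Cyp2c55, Cyp2d11 and Cyp4a32). Cyp2e1 (0.0576%) and Cyp2f2 (0.0613%) were among the 30, with 2141 and 173 reads in all WT muscles together. Above 100% lay 3 genes, namely Cyp1a1 (110%), Cyp1b1 (320%) and Cyp4f39 (595%).

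Per length, the highest members in WT muscle were Cyp4f13 (median 6.10 RPKM), Cyp2d22 (4.26 RPKM), Cyp2e1 (3.41 RPKM), Cyp4b1, best known from lung (3.07 RPKM), Cyp4f39 (1.36 RPKM) and Cyp4f17 (1.24 RPKM). By reads, Cyp4f genes made up a median of 25.8% of P450 reads in WT muscle, Cyp2d 22.6%, Cyp2e1 12% and Cyp4b1 9.57%. The order of the subfamilies thus differed from that in liver, where Cyp4f genes held 1.06%. Cyp2u1 measured 1.5, 1.8 and 2.36 CPM in WT muscle, and Cyp2r1 0 to 0.157 CPM.

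In muscle, KO-labelled and WT libraries were compared for the 16 members with enough reads. None of these (0 of 16) passed the adjusted threshold, which 0.00754% of all 13266 genes passed (DESeq2 and limma-voom called 0 members as well, with 3 and 2 at an unadjusted p under 0.05). At an unadjusted p under 0.05 there were 3 members beside 8.64% of all genes, all 3 higher in the muscles labelled KO (3.76% of all genes). Cyp4f18 measured 0.111, 0.333 and 0.579 CPM in WT muscle and 0.306, 0.552 and 0.839 CPM in muscle labelled KO (log2 fold change 0.75, standard error 0.24, p = 0.0046, adjusted p = 0.49). Cyp1b1, found mainly outside hepatocytes, had a log2 fold change of 0.36 (standard error 0.13, p = 0.014) and a range of 2.64 to 5.73 CPM in the muscles labelled KO. Cyp2e1 had a log2 fold change of 0.86 (standard error 0.40, p = 0.044), and Cyp2d22 followed with 0.13 (standard error 0.06, p = 0.059). All of these ranges overlapped between the groups.

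The Cyp2e1 difference rested on 2 muscles labelled KO. Cyp2e1 measured 3.96, 5.93 and 12.4 CPM in WT muscle and 3.76, 6.74 and 54.8 CPM in muscle labelled KO, with 54.8 CPM in mouse 561 and 29.3 CPM in mouse 611. The next value in that group was 11.0 CPM. In the same 2 muscles the adipocyte hormone Adipoq measured 224 and 164 CPM against 83.7 CPM or less in all WT muscles. Marker sums of other cell types were also above all WT muscles there. Fibroblast markers summed to 829 and 831 CPM against 618 CPM or less, and endothelial markers to 312 and 337 CPM against 296 CPM or less. Markers of pericytes and smooth muscle summed to 463 and 491 CPM against 427 CPM or less. Macrophage markers summed to 63.8 and 67.8 CPM against 52.9 CPM or less. Cyp4v3, a fatty acid hydroxylase, measured 15.1 and 12.8 CPM there against 6.92 CPM or less in WT muscle, and Cyp4b1 measured 11.2 CPM in both against 8.63 CPM or less. Without these 2 animals the log2 fold change of Cyp2e1 was -0.11, and 1 member had an unadjusted p under 0.05, beside 10.2% of all genes.

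Cyp2e1 in muscle moved with adipocyte markers. With the mean log2 CPM of 7 adipocyte markers, its log2 CPM gave r = 0.75 (adjusted p = 0.026) and rho = 0.85 (adjusted p = 0.00976) over 11 WT muscles. Over 11 muscles labelled KO it gave r = 0.94 (adjusted p = 0.00587) and rho = 0.75 (adjusted p = 0.0429). Without the 2 muscles farthest from the median of Cyp2e1, r was 0.61 in WT and 0.46 in muscles labelled KO, so that the latter relation rests on mice 561 and 611. With 10 hepatocyte markers r was -0.15 (rho = 0.02) and -0.01 (rho = 0.09). Adipocyte markers summed to 102, 213 and 433 CPM in WT muscle and to 147, 243 and 1073 CPM in muscles labelled KO, and all 7 were detected in muscle. Fat between muscle fibres and the muscle's own Cyp2e1 mRNA were not separated in these libraries. The relation of Cyp2e1 to fibroblast, endothelial, pericyte and macrophage markers was not tested.

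**Figure D5:**
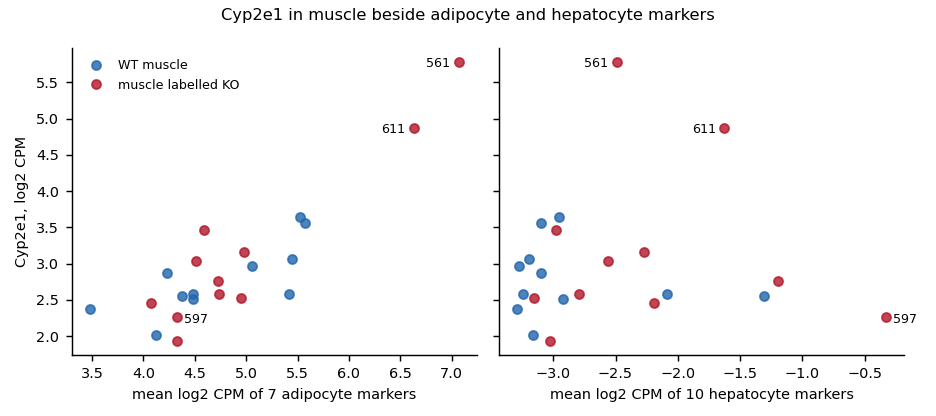
Log2 CPM of Cyp2e1 in 22 muscles against the mean log2 CPM of 7 adipocyte markers (left) and of 10 hepatocyte markers (right), with WT in blue and muscles labelled KO in red. Cyp2e1 runs with the adipocyte markers (r = 0.75 in WT), mice 561 and 611 lie at the upper right, and no such relation is seen on the right (r = -0.15 in WT).

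Whether the genotype difference itself differed between tissues was tested as an interaction across all 44 libraries. Of 52 members tested, 0 passed the adjusted threshold, which 0.00678% of all 14739 genes passed (0 members also with DESeq2 and limma-voom, which had 5 and 1 at an unadjusted p under 0.05), and 6 had an unadjusted p under 0.05 beside 16.2% of all genes. Cyp1a1 had a log2 difference of 4.22 (standard error 1.30, adjusted p = 0.28), which became -0.24 without the 2 libraries of mouse 597 and 0.52 with the mouse as replicate block. Cyp3a25 (-2.40, standard error 0.93), the bile acid hydroxylase Cyp2a12 (-1.90, standard error 0.75) and Cyp4a14 (-1.20, standard error 0.54) had negative values, each with an adjusted p of 0.28 or 0.29. For the latter 3 genes the muscle side consisted of 0 to 0.393 CPM per library. Hepatocyte markers in muscle summed to 0.407, 0.695 and 6.75 CPM in WT mice and to 0.639, 2.40 and 11.9 CPM in muscles labelled KO, highest in mouse 597, and 3 of 10 of these markers had a negative interaction at an unadjusted p under 0.05. Their part in the 3 values was not tested.

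The genes that supply P450 enzymes with electrons and haem, and their regulators, were read from a list of 33 genes. In liver 31 were tested and 0 passed the adjusted threshold, while 6 had an unadjusted p under 0.05, 5 higher and 1 lower, beside 12.9% of all genes (9.78% higher and 3.1% lower), with a median log2 fold change of -0.02 over the list. Of the electron carriers, cytochrome b5 (Cyb5a) had a log2 fold change of 0.18 (standard error 0.08), its mitochondrial form Cyb5b one of -0.19 (standard error 0.07), and the reductase Por one of 0.29 (standard error 0.19) with 203 to 515 CPM in WT and 226 to 676 CPM in KO livers. In haem metabolism, Hmox2, which degrades haem, had a value of 0.26 (standard error 0.09), the synthetic enzyme Ppox one of 0.18 (standard error 0.07) and Alas1, the first and rate-limiting enzyme of haem synthesis, one of -0.08 (standard error 0.28). Among the receptors, Nr1i3 had a value of 0.23 (standard error 0.11), Nr1i2 0.18 (standard error 0.09), Ahr -0.13 (standard error 0.15) and Ppara -0.35 (standard error 0.28). The epoxide hydrolase Ephx2 had a value of 0.20 (standard error 0.09). Without the 4 livers whose levels fell with gene length, 1 of the 31 had an unadjusted p under 0.05 and none of the former 6 did. Cyb5a was then at 0.01 (standard error 0.05), Cyb5b at -0.12 (standard error 0.08), Hmox2 at 0.08 (standard error 0.06), Ppox at 0.06 (standard error 0.06), Ephx2 at 0.07 (standard error 0.08) and Nr1i3 at 0.21 (standard error 0.11). The gene under 0.05 was Arnt, the partner of Ahr, at 0.08 (standard error 0.03, p = 0.036), and Ppara was at 0.07 (standard error 0.07). In muscle 27 of the 33 were tested and 0 had an unadjusted p under 0.05, beside 8.64% of all genes, and in the interaction 5 of 32 did, 3 higher and 2 lower, beside 16.2% of all genes.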

How the data were processed

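RNA-Seq was performed on poly(A) RNA with a stranded kit and single-end reads of 85 bases, in 11 mice per genotype and 2 tissues each. The authors deposited, without normalization, the counts of reads per gene for 38202 genes, and a second table of RPKM values (reads scaled to gene length and depth), which its name marks as unique; the aligner, the counting program and the genome build are not given in the sources used here. Gene symbols were matched to Ensembl IDs for 36340 genes. Groups, genotypes and mouse numbers were taken from the labels. The members and gene lists were chosen with earlier results of these data known.

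Counts were normalised with TMM and tested with edgeR 4.0.16 (R 4.3.3; filterByExpr, quasi-likelihood test, Benjamini-Hochberg adjustment over all genes tested, threshold 0.05). CPM values use TMM-scaled library sizes and log2 CPM a prior count of 2. Alternatives were DESeq2 1.42.0, limma-voom (limma 3.58.1), scaling by library size alone, no filter, at least 10 counts in every library, removal of gene length (loess, span 0.3), the mouse as replicate block, omission of the 4 KO livers whose slope on gene length was below 0, and omission of each mouse in turn. Liver and muscle with the same number came from the same animal, so the numbers pair the tissues. Omission of mice 561 and 611, and of mouse 597, was chosen after seeing the data. Procedures were tested on simulated data. Correlations used two-sided permutation tests. Motifs and sequences came from RefSeq promoter windows, and shared windows from GENCODE M21 transcripts.

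The genes named were the 10 highest in WT liver and 6 highest in WT muscle by RPKM, the 6, 4 and 4 with the smallest p in liver, muscle and interaction, the 6 most variable in WT livers, and members with a textbook role. Other genes are named where a result turned on them, after their values were seen. Between 20150712 and 35218243 reads per library limit precision for genes under 1 CPM, and 0 pairs of libraries were identical.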

Additional observations from a re-analysis of the deposited data

How the results depend on the processing

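No member passed the adjusted threshold between genotypes, or in the interaction, under any alternative run. The number at an unadjusted p under 0.05 in liver, 8 of 51, was 4 with limma-voom and with library size alone, 3 of 52 without the 4 KO livers of falling length slope, 4 without these and mouse 597, and 4 to 11 with each mouse left out in turn. In muscle, 3 of 16 became 12 of 49 without a filter, 1 without mice 561 and 611, and 2 to 4 with each mouse left out. The 12 were all higher in the muscles labelled KO. Without a filter, members with few or no muscle reads were included. Hepatocyte markers summed to a median of 0.695 CPM in WT muscle and 2.40 CPM in muscles labelled KO. Their part in the 12 was not tested. Between tissues, 12 of 12 passed, adjusted and unadjusted, when every library needed 10 counts. In the interaction, 6 of 52 became 1 with limma-voom, 0 of 11 with 10 counts in every library and 1 without mouse 597. With the mouse as replicate block, 46 members passed between tissues as without it, and 4 of 52 had an unadjusted p under 0.05 in the interaction. The block changed no other call. In the main fits, 91.0% of all genes passed the adjusted threshold between tissues. At the unadjusted mark the main shares were 12.9% in liver, 8.64% in muscle and 16.2% in the interaction. Shares of all genes are not given for every alternative, so these counts only describe how the member calls moved.

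The log2 fold change of Cyp1a1 in liver was -0.39 with DESeq2 and -0.21 without mouse 597 and the 4 livers, and -0.41 to 4.57 with each mouse left out. Its interaction value was -0.60 with DESeq2 and -0.24 without mouse 597. Cyp2e1 in muscle was -0.11 without mice 561 and 611, and Cyb5a in liver -0.0245 with gene length removed and -0.00946 without mouse 597 and the 4 livers. Without those 4 livers, r in KO livers was -0.25 for Cyp2b9 and Cyp2b10 and -0.37 for Cyp3a11 and Cyp2c29. With a prior count of 0.5, r of Cyp2e1 and hepatocyte markers in muscles labelled KO was 0.0158. Beyond the omissions named, the cause was not tested. Members near 0 in muscle are limited by depth.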

Other observations

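The P450 genes with a letter after the final number fell outside the selection. Cyp4a12a, a male-biased fatty acid hydroxylase, measured 49.4, 110 and 201 CPM in the lowest, median and highest WT liver and 40.8, 106 and 191 CPM in KO livers. Cyp4a12b measured 10.5, 22.9 and 72.6 CPM in WT livers and 15.0, 29.6 and 60.4 CPM in KO livers. Cyp3a41a, Cyp3a41b and Cyp4a30b had at most 1 read in any library.

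Cyp2a22 was near 0 in some KO livers and in a single WT liver, which held 2 reads. It was at 0.0751 CPM in WT mouse 586 and at 1.8 CPM or more in the other 10 WT livers, and it was at 0.202, 0.249, 0.161 and 0.0789 CPM in KO mice 588, 598, 587 and 583 and at 3.79 CPM or more in the other 7 KO livers. Its neighbour in sequence, Cyp2a12, measured 430 to 756 CPM in WT and 486 to 893 CPM in KO livers and shared 6.40% of its read-length windows with it.

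Mouse 597 held the highest of 22 liver values for 3 of 46 members and the lowest for 5, among them Cyp2d9, Cyp2d10, Cyp4f13 and Cyp4f14. Other livers held more extremes, the lowest value of 12 members being in WT mouse 528 and that of 9 in KO mouse 532, and the highest of 9 each in KO mice 598 and 602. Mouse 597 also had the highest Cyp2b9 of the KO livers, 314 CPM.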
